A study of Mus musculus with 10 samples.

Results

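The genes described here encode receptors for serotonin, dopamine, noradrenaline, acetylcholine, adenosine, cannabinoids, opioids and histamine, the signals that set the state of the neocortex rather than carry its point-to-point traffic. A fixed set of 37 receptor genes was looked up through the gene identifiers of the array annotation, and each gene was represented by its probe set with the highest mean log2 signal over all arrays. Of the 37 genes, 34 were found among the 17858 genes with a probe set, and Htr2a, Adra1d and Chrm2 are not analysed here. Affymetrix M430 2.0 arrays were each hybridized with RNA from the whole neocortex of 1 male B6xC3 F1 hybrid mouse, and 5 mice of 5 months were compared with 5 mice of 30 months. All the mice were housed singly on the control diet, and the labels name no treatment or allele that differed between the ages. In a deposited table the column names of all 5 old arrays carry the prefix SK, which no young array has and which is not explained there, so whatever it marks cannot be told apart from age. Signals are probe set intensities on a linear scale. A change is the mean log2 signal at 30 months minus that at 5 months. Each change carries a standard error (SE) from limma with 5 mice per age. A gene was called when its adjusted p-value over all 17858 genes was under 0.05.

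Most of these receptors couple to G proteins. Gs-coupled receptors raise cyclic AMP, Gi-coupled receptors lower it and open potassium channels, and Gq-coupled receptors release calcium, while the nicotinic receptors and Htr3a form ion channels. Some of their ligands reach the cortex largely from distant cell groups. Acetylcholine comes from the basal forebrain, noradrenaline from the locus coeruleus, serotonin from the raphe nuclei, dopamine from the midbrain and histamine from the hypothalamus. For these transmitters, a receptor transcript measured in cortical RNA therefore comes mainly from the receiving cells. In RNA of whole tissue, a change in the number of cells that express a gene and a change in the RNA per cell cannot be told apart.

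Promoter sequences are shown for 3 of the receptors whose signal differed with age, as RefSeq gives them on GRCm38.p6, from 250 bases before to 50 bases after the annotated start. Capitals mark a GC box, the letters GGGCGG on either strand, which factors of the Sp family bind. The Htr1a window is chr13:105443443-105443742 on the plus strand, the Chrna7 window is chr7:63212477-63212776 on the minus strand, and the Oprl1 window is the first of 3 listed starts, chr2:181714766-181715065 on the plus strand.
Htr1a: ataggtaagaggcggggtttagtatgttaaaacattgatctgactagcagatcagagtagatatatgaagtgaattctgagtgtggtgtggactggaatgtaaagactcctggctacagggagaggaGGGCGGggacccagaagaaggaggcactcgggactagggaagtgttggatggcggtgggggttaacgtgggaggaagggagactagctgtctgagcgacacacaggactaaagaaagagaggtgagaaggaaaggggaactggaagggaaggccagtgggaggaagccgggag
Chrna7: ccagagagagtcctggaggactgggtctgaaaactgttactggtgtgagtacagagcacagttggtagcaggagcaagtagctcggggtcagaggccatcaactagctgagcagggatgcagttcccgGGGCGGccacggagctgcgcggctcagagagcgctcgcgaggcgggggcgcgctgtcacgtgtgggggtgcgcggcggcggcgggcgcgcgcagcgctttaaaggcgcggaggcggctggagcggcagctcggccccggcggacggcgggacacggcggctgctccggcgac
Oprl1: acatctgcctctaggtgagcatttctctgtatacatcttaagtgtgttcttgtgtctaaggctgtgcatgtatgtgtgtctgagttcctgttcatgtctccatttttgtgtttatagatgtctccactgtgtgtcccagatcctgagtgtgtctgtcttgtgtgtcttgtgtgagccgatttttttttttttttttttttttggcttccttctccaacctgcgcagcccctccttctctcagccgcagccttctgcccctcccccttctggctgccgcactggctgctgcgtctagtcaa
The Htr1a and Chrna7 windows hold 1 GC box each, and the 3 Oprl1 windows and the 3 Oprm1 windows hold none. Their GC content differed, at 70.0% for Chrna7, 52.3% for Htr1a and 47.7% for the Oprl1 window shown. RefSeq windows were matched for 28 of the receptor genes, 42 windows in all, and 24 of these (57.1%) hold a GC box against 35.7% of all 32851 windows. The full cyclic AMP response element TGACGTCA was in none of the 42 windows and in 1.79% of all windows, and its shorter core TGACG, which the full element contains, was in 9.52% of the receptor windows and 20.8% of all windows. The matches describe these letters in these windows and are not evidence of binding.

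Between 5 and 30 months, 4 receptor genes were higher and 2 were lower. The mu opioid receptor Oprm1, the muscarinic receptor Chrm1, the nociceptin receptor Oprl1 and the nicotinic subunit Chrna7 were higher, and the serotonin receptor Htr1a and the adrenergic receptor Adra1a were lower. The 6 called genes were 17.6% of the 34 measured, where 32.9% of all genes were called; 23.1% of all genes were called higher and 9.82% lower. The receptor genes thus held a smaller share of calls than the array as a whole. The median change of the 34 genes was 0.05 on the log2 scale, as it was over all genes, while the median size of a change, whatever its sign, was 0.13 for the receptors and 0.20 over all genes.

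Of the 34 genes, 25 had a mean log2 signal above 6.89, the median of all probe sets, and 9 lay below it: Htr1f, Htr4, Htr7, Drd4, Adra1a, Adra1b, Chrm3, Chrm4 and Oprd1. Nearest to that line were Htr4 at 6.78 and Htr1a at 7.20. The median SE of a change was 0.08 above that line and 0.20 below it, so the dim genes were measured less precisely. Of the 25 brighter genes 5 were called, where 42.9% of the 11954 genes above the line were called in the same fit. For the other 20, the 95% confidence intervals of the change together reached from -0.46 to 0.43. At an unadjusted limma p under 0.05 there were 10 of the 34 receptor genes and 7743 of all 17858 genes, the smaller share being that of the receptors. In 5 receptor genes the signals of the 2 ages did not overlap, 3 with every old mouse higher and 2 with every old mouse lower. Over all genes 22.4% did not overlap, 17.4% with every old mouse higher and 4.99% with every old mouse lower.

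**Figure D1:**
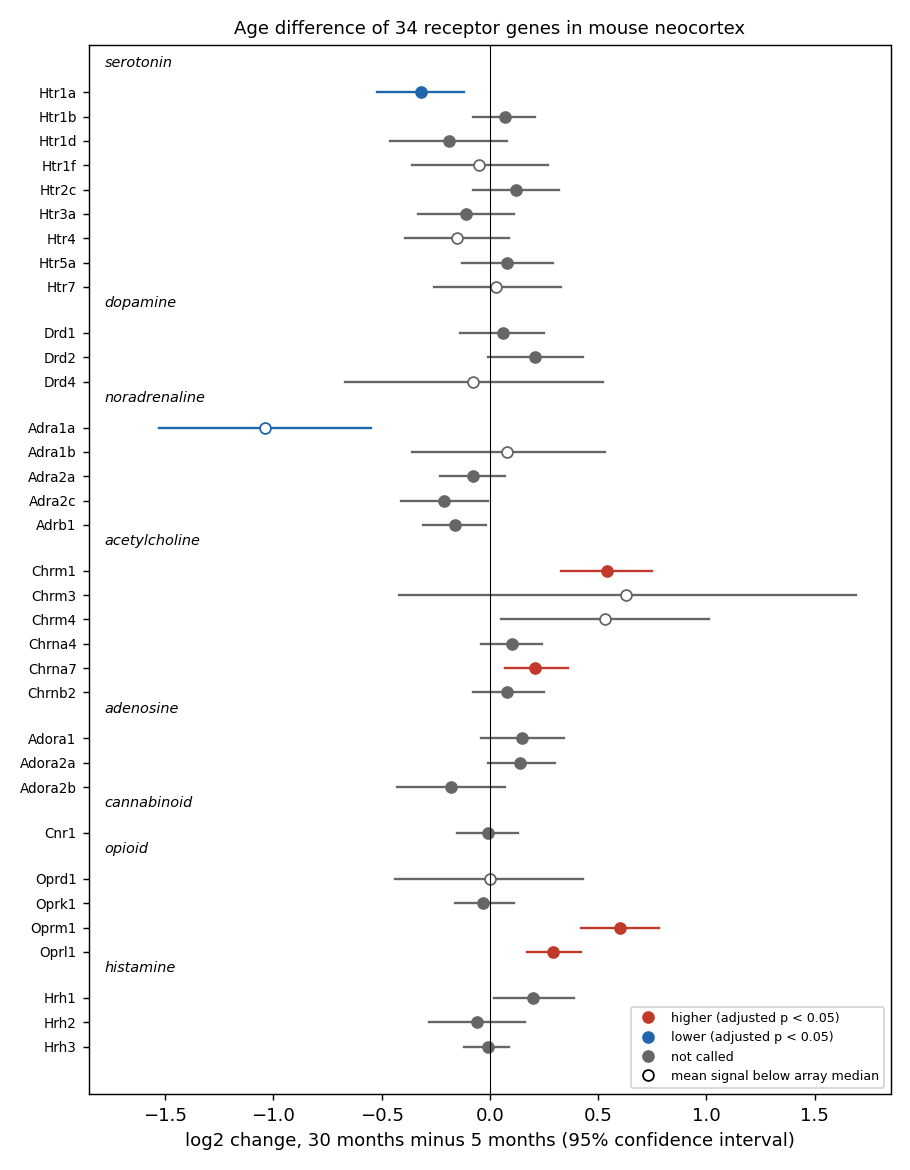
Change of each of the 34 receptor genes on the log2 scale (x axis, 30 minus 5 months) with its 95% confidence interval, grouped by transmitter. Coloured points are the 4 genes called higher and the 2 called lower, open points are the 9 genes below the median signal, and most intervals include 0.

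The cholinergic receptors held 2 of the 4 higher genes, which is 2 of 6 measured, where 23.1% of all genes were called higher. On the brightest probe sets the changes of all 6 lay above 0, from 0.08 to 0.63, the last that of Chrm3 near the signal floor. Further probe sets went both ways: -0.27 and 0.31 for Chrna4, -0.33 and 0.14 for Chrnb2, -0.08 for Chrna7 and 0.49 for Chrm1. The Chrnb2 change was -0.01 when arrays were set to the same median over the brighter probe sets and -0.04 when its probe sets were averaged. Chrm1 encodes the M1 muscarinic receptor, the Gq-coupled receptor through which acetylcholine excites cortical pyramidal cells. Its signals at 5 months were 1629, 1321, 1541, 1582 and 1160, and at 30 months 2160, 1848, 2397, 1999 and 2071. Every old mouse was above every young mouse. On the log2 scale the mean went from 10.49 ± 0.21 to 11.03 ± 0.14 (SD, n = 5 each), a change of 0.54 (SE 0.10) or 1.45-fold, with an adjusted p of 0.00159 by limma. The second Chrm1 probe set, 1450833_at, was also called higher, at 0.49 (SE 0.14, limma adjusted p over all probe sets 0.0305), with a mean below the array median and overlapping ages. Chrm1 was called under each of 23 other settings of the processing, with changes from 0.43 to 0.59.

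Chrna7 encodes the subunit of the homomeric alpha7 nicotinic receptor, a channel with high calcium permeability. Its signals at 5 months were 292, 362, 342, 327 and 325, and at 30 months 360, 389, 365, 390 and 406. The ages touched, since the highest young mouse lay above the lowest old mouse. The change was 0.21 (SE 0.07) with an adjusted p of 0.0272 by limma, and it was the least steady of the 6 calls: it was lost in 10 of 23 other settings, among them leaving out 5-month mouse 1 (adjusted p 0.0537) or 4 (0.0528) and 30-month mouse 3 (0.056), 5 (0.0596) or 6 (0.0614). It was also lost under quantile normalization, where the change was 0.14 with an adjusted p of 0.132. The other Chrna7 probe set, 1450299_at, changed by -0.08 (SE 0.09) and was not called.

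The 2 subunits of the main high-affinity nicotinic receptor of the brain, Chrna4 and Chrnb2, were not called on their brightest probe sets, with changes of 0.10 and 0.08. Their other probe sets disagreed. For Chrna4, 1421202_at fell by 0.27 with young signals of 229 to 255 and old signals of 186 to 220, while 1456354_at rose by 0.31. For Chrnb2, 1420744_at fell by 0.33. A direction for either gene therefore depends on which probe set is read.

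The Gi-coupled M4 receptor gene Chrm4 had signals of 21.1 to 48.5 at 5 months and 34.7 to 51.0 at 30 months, and its change of 0.53 (SE 0.22) was not called. Without 5-month mouse 3, which had the signal of 48.5, the change was 0.73 with a limma adjusted p of 0.00966. Only this 1 of 22 other settings called Chrm4. Chrm3, another Gq-coupled muscarinic receptor, was listed at 1 on 8 of the 10 arrays and at 4.03 and 2.23 in 30-month mice 5 and 6, too close to the floor for a comparison.

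Of the opioid receptors, Oprm1 and Oprl1 were higher while Oprk1 and Oprd1 were not called. These are Gi-coupled receptors that damp transmitter release and excitability. Oprm1, the receptor of endorphins and morphine, had signals of 1788, 1671, 1479, 1616 and 1339 at 5 months and of 2082, 2570, 2283, 2416 and 2608 at 30 months. Every old mouse was above every young mouse. The mean log2 signal went from 10.62 ± 0.16 to 11.22 ± 0.13 (SD, n = 5 each), a change of 0.60 (SE 0.08, 95% confidence interval 0.42 to 0.78) or 1.52-fold, with the lowest adjusted p among the receptors, 0.000322 by limma.

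The Oprm1 call rests on 1 of its 5 probe sets. That probe set, 1459402_at, was designed on an expressed sequence tag (EST), a single-pass read of a cDNA clone. None of the other 4 was called, and all 4 had a mean below the array median. A second EST-based probe set, 1441791_at, changed by 0.03 with signals of 92.8 to 117 at 5 months and 95.9 to 124 at 30 months. Of the 3 designed on full-length mRNA, 1451709_at changed by 0.12 with signals between 36.4 and 47.8, and the other 2 were listed at 1 on most arrays and reached no more than 9.71 and 3.17. When the probe sets of the gene were averaged, the Oprm1 change was 0.36 with an adjusted p of 0.145, its only loss of the call in 23 settings.

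Oprl1 encodes the receptor of nociceptin. Its signals were 804, 846, 735, 808 and 733 at 5 months and 900, 1008, 993, 1017 and 895 at 30 months, again with no overlap. The change was 0.29 (SE 0.06) or 1.23-fold, with an adjusted p of 0.00271 by limma. Its 2 other probe sets, also designed on full-length mRNA, changed by -0.05 and 0.11 and were not called, and the average over the 3 was 0.12 with an adjusted p of 0.482, the only one of 23 settings without the call. The kappa receptor Oprk1, which dynorphin activates, had a change of -0.03 with a confidence interval from -0.16 to 0.11. The other Oprk1 probe set, 1446394_at, changed by -0.43 (SE 0.15, limma adjusted p over all probe sets 0.065, not called). The delta receptor Oprd1, which enkephalin activates, lay below the array median, with signals of 25.8 to 43.1 at 5 months and 20.7 to 37.1 at 30 months.

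**Figure D2:**
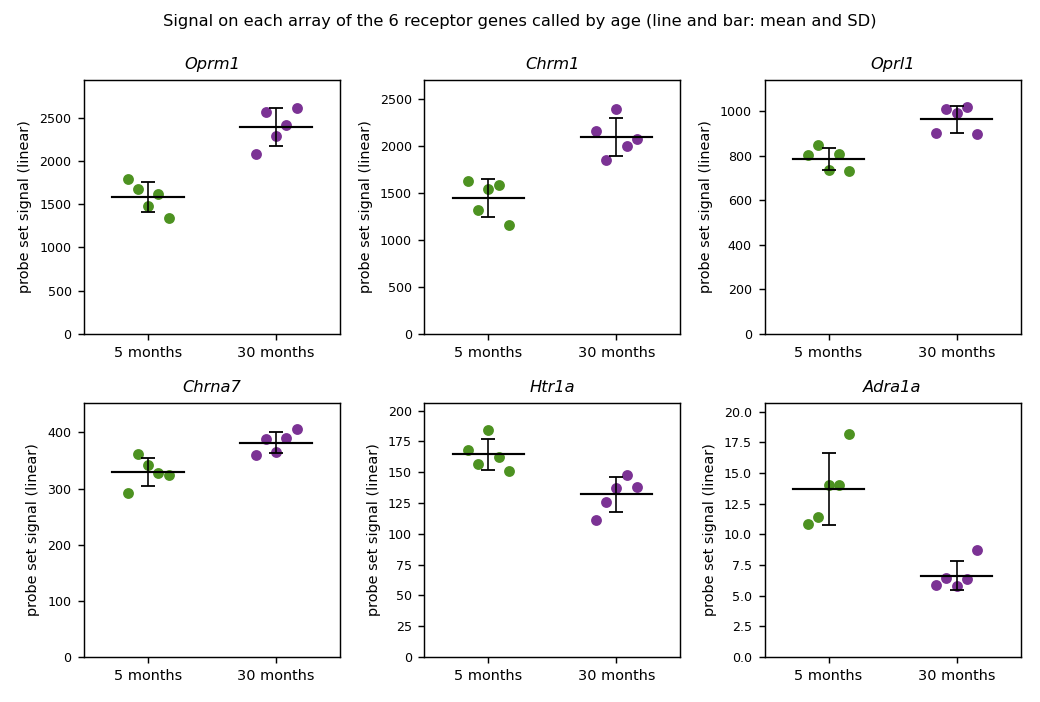
Linear probe set signal (y axis, from 0) of the 6 called receptor genes in each mouse at 5 months (green) and 30 months (purple), with lines and bars for mean and SD. The ages do not overlap in Oprm1, Chrm1, Oprl1, Htr1a and Adra1a, and they overlap in Chrna7; the Adra1a signals reach only 18.2.

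Among 9 measured serotonin receptors, Htr1a was lower and the other 8 were not called. Htr1a encodes a Gi-coupled receptor that hyperpolarizes pyramidal cells and, in the raphe, restrains the serotonin neurons themselves. Its signals were 168, 157, 184, 162 and 151 at 5 months and 111, 126, 137, 148 and 138 at 30 months. Every old mouse was below every young mouse, by a narrow margin between 151 and 148. The mean log2 signal went from 7.36 ± 0.11 to 7.04 ± 0.16 (SD, n = 5 each), a change of -0.32 (SE 0.09) or 0.80-fold, with an adjusted p of 0.0206 by limma. The second Htr1a probe set, 1438710_at, has almost the same mean log2 signal, 7.16 beside 7.20, and changed by 0.04 (SE 0.13) without a call, so the rule of highest mean chose the called probe set over the uncalled one by 0.04. Without 5-month mouse 3 the Htr1a adjusted p was 0.0544.

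The other serotonin receptors lay between -0.19 and 0.12. Htr2c, the Gq-coupled receptor whose RNA is edited, is strongly expressed in the choroid plexus, so its level was read beside that tissue's markers. Its signals were 1116 to 1440 at 5 months and 1248 to 1629 at 30 months, with a change of 0.12 (SE 0.09, not called), and the highest signal came from 30-month mouse 3. The mean log2 signal of 9 choroid plexus markers was 8.31 in that mouse, the highest of the 10. It ranged from 7.68 to 8.15 at 5 months and from 7.39 to 8.31 at 30 months. The lowest Htr2c signal, 1116, came from 5-month mouse 4, whose marker level of 8.15 was the highest of its age. In 30-month mouse 4 the Htr2c signal was 1478, the second highest of its age, beside a marker level of 7.74. Of the 9 markers, 2 were lower and none was higher, and their part in the Htr2c values was not tested. A second Htr2c probe set, 1450477_at, was called lower at -0.20, with young signals of 363 to 406 and old signals of 312 to 361.

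Htr1b, the Gi-coupled receptor on axon terminals, changed by 0.07 with signals of 286 to 349 and 319 to 364. Htr1d, its close relative, changed by -0.19 with signals of 170 to 204 and 128 to 193. Htr3a, the ion channel subunit found in a class of cortical interneurons, changed by -0.11, and Htr5a, a Gi-coupled receptor, changed by 0.08. The dim genes Htr1f, a Gi-coupled relative of Htr1b, and Htr4 and Htr7, both Gs-coupled, had changes of -0.05, -0.15 and 0.03. A further Htr4 probe set, 1439614_at, was called lower at -0.65, although its old signals, from 52.9 to 93.8, overlapped the young ones, from 88.8 to 134.

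Of 5 measured noradrenaline receptors, Adra1a was lower and 4 were not called. Adra1a encodes a Gq-coupled receptor. Its signals were 10.8, 11.4, 14.0, 14.0 and 18.2 at 5 months and 5.89, 6.42, 5.81, 6.32 and 8.68 at 30 months, all far below the array medians of 114.5 to 122.6. The ages did not overlap, and the change was -1.04 (SE 0.22) or 0.49-fold, with an adjusted p of 0.00445 by limma. The other Adra1a probe set, 1459351_at, went the opposite way, with a change of 1.45 (SE 0.65, not called), young signals of 1.70 to 10.3 and old signals of 3.20 to 23.2. The average over both was 0.20 with an adjusted p of 0.753, so these arrays give no settled direction for Adra1a.

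The remaining adrenergic receptors changed little on the deposited scale, but 2 of them were called under other scalings. Adrb1, the Gs-coupled beta receptor through which noradrenaline raises cyclic AMP in cortical cells, had signals of 931, 945, 849, 932 and 940 at 5 months and 884, 821, 694, 896 and 822 at 30 months. Its change was -0.16 (SE 0.07, limma adjusted p 0.0851), and 4 of the 5 young mice lay above every old mouse. It was called lower under quantile normalization (-0.29, adjusted p 0.00458) and when arrays were set to the same median over the brighter probe sets (-0.26, adjusted p 0.00784).

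Adra2c, one of the Gi-coupled alpha2 receptors that also act as autoreceptors on noradrenergic terminals, had signals of 564, 556, 495, 605 and 669 at 5 months and 513, 531, 416, 545 and 493 at 30 months. The ages overlapped, and the change of -0.21 (SE 0.09) had an adjusted p of 0.0976 by limma. Under the same 2 scalings it was called lower, at -0.31 (adjusted p 0.0221) and -0.30 (adjusted p 0.0187), and also without 5-month mouse 3 (-0.26, adjusted p 0.0458). These were 3 of 23 other settings, and the rest did not call it. Another bright Adra2c probe set, 1422335_at, changed by 0.01 (SE 0.08). Adra2a, a close relative of Adra2c, changed by -0.08 with signals of 516 to 621 and 504 to 588. Adra1b, which is Gq-coupled, was dim, with a change of 0.08 (SE 0.20).

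None of the 3 dopamine and 3 adenosine receptors was called. Drd1, the Gs-coupled dopamine receptor, had a change of 0.06 (SE 0.09), with signals of 631 to 848 at 5 months and 635 to 825 at 30 months. Its second probe set, 1455629_at, was called higher at 0.39 (SE 0.10), with signals of 400 to 536 and 534 to 757, and the average of both was called at 0.22 (adjusted p 0.0428). Drd2, the Gi-coupled dopamine receptor, had signals of 556, 552, 635, 594 and 565 at 5 months and 729, 761, 625, 762 and 519 at 30 months. Its old mice thus included both the highest 3 values and the lowest one. The change was 0.21 (SE 0.10, limma adjusted p 0.126), and without 30-month mouse 6 it was 0.31 with an adjusted p of 0.00981. Drd2 was called in 4 of 23 other settings. Drd4, a Gi-coupled receptor, was dim and changed by -0.08 (SE 0.27).

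Adora2a is the Gs-coupled adenosine receptor that shares striatal neurons with Drd2. Its signals were 1013, 889, 1048, 1025 and 1042 at 5 months and 1173, 1148, 1107, 1187 and 932 at 30 months, with 30-month mouse 6 again the lowest of its age. The change was 0.14 (SE 0.07, limma adjusted p 0.151), and without that mouse it was 0.20 with an adjusted p of 0.0194. Adora2a was called in 3 of 23 other settings. Its other probe set, 1427519_at, pointed down and was called lower, at -0.35 (limma adjusted p over all probe sets 0.021). Its young signals were 751 to 979 and its old signals 579 to 742.

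Drd1, Drd2 and Adora2a are far more abundant in the striatum, which lies directly under the neocortex, so 9 striatal markers were read on the same arrays. Their mean log2 signal was 10.10, 10.37, 10.17, 10.42 and 10.06 in 30-month mice 2 to 6, and ranged from 10.07 to 10.24 at 5 months. The old mouse with the lowest Drd2 and Adora2a signals also had the lowest striatal level, and the 2 old mice with the highest Drd2 signals had the highest striatal levels. In 30-month mouse 2 they parted: its striatal level of 10.10 was the second lowest of its age, beside signals of 729 for Drd2 and 1173 for Adora2a. Between the ages the striatal level differed by 0.08 (exact permutation test, two-sided, p = 0.325, adjusted over 12 marker lists 0.488). Of the 9 markers, 3 were higher (Rgs9 at 0.43, Syndig1l at 0.42 and Adcy5 at 0.25) and none was lower. Their part in the dopamine and adenosine receptor values was not tested.

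**Figure D3:**
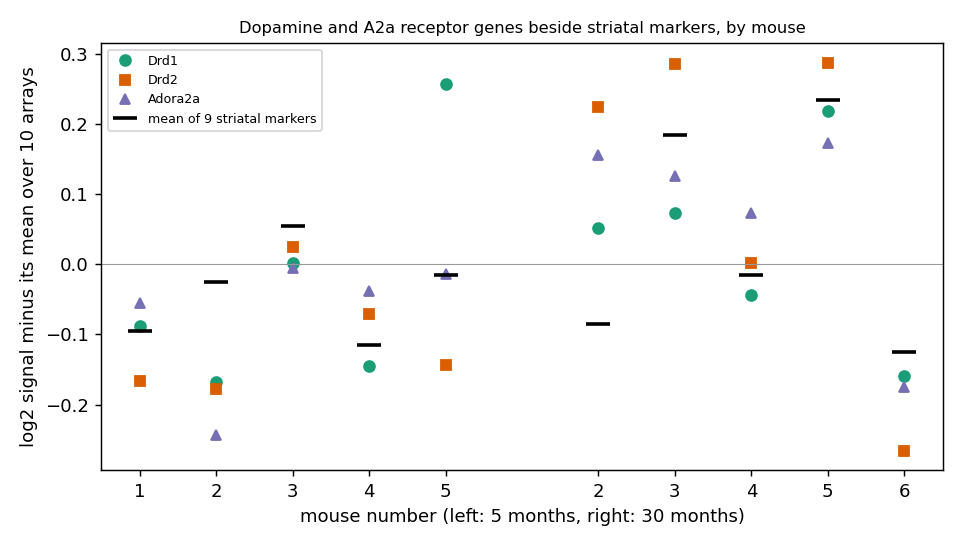
Log2 signal of Drd1, Drd2 and Adora2a in each mouse, as the difference from the gene's mean over 10 arrays (y axis), beside the mean of 9 striatal markers (black bars). In 30-month mouse 6 all 4 measures lie below 0, and in 30-month mice 3 and 5 all 4 lie above 0. In 30-month mouse 2 the striatal mean lies below 0 and Drd1, Drd2 and Adora2a lie above it.

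Adora1, the Gi-coupled adenosine receptor that holds down glutamate release, stood out by its spread. At 5 months its 5 signals lay between 1066 and 1096 (SD 0.02 on the log2 scale), and at 30 months they were 1449, 1248, 946, 1170 and 1209 (SD 0.22). The change was 0.15 (SE 0.09, limma adjusted p 0.217), and without 30-month mouse 4, which had the signal of 946, it was 0.23 with an adjusted p of 0.0132. Only this 1 of 23 other settings called Adora1. Its other probe set, 1427331_at, had SDs of 0.11 and 0.14 at the 2 ages and changed by -0.16 without a call. Adora2b, the low-affinity Gs-coupled receptor, changed by -0.18 on its brightest probe set (not called), and 2 dim ones were called in opposite directions, 1434772_at at -0.36 and 1434430_s_at at 0.61.

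Cnr1, the CB1 cannabinoid receptor of interneuron and pyramidal cell terminals, had a change of -0.01 (SE 0.07, confidence interval -0.15 to 0.13), with signals of 1629 to 1980 at 5 months and 1636 to 2010 at 30 months. The other Cnr1 probe set, 1419425_at, changed by -0.20 (limma adjusted p over all probe sets 0.0663, not called). Of the histamine receptors, none was called. Hrh1, which is Gq-coupled, had signals of 160 to 206 and 193 to 233 and a change of 0.20 (SE 0.08, limma adjusted p 0.0844). Without 5-month mouse 1, the highest of the young, the change was 0.25 with an adjusted p of 0.0391. Only this 1 of 23 other settings called Hrh1. Hrh2, which is Gs-coupled, changed by -0.06. Hrh3, the Gi-coupled autoreceptor of histamine terminals, had signals of 1333, 1230, 1258, 1299 and 1139 at 5 months and 1277, 1253, 1172, 1256 and 1246 at 30 months. These overlapped, with a change of -0.01 (SE 0.05), although under quantile normalization Hrh3 was called lower at -0.14 (adjusted p 0.0121). The other Hrh3 probe set, 1445285_at, changed by -0.61 (SE 0.26) and was not called.

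The probe sets of a receptor gene often disagreed. The 34 genes had 71 probe sets, 24 genes had several, and in 16 of these 24 the changes included both signs. Over all 71, 8 were called higher and 8 lower, 11.3% each, where 15.0% of all 45037 probe sets were called higher and 7.44% lower. Probe sets of the same gene were called in opposite directions for Adora2b and Chrna4. The 41 probe sets above the array median included 21 designed on full-length mRNA, of which 1 was called higher and 4 lower (median change -0.06). The 18 designed on ESTs included 5 called higher and none lower (median change 0.10). Over all named probe sets above the array median, 25.0% of full-length mRNA designs were called higher and 8.76% lower, beside 30.5% and 9.71% of EST designs. In 10 receptor genes with bright probe sets of both kinds, the EST design had the higher change in 6, which is 60.0%, and over all such genes it did in 1114 of 1846, or 60.3%.

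**Figure D4:**
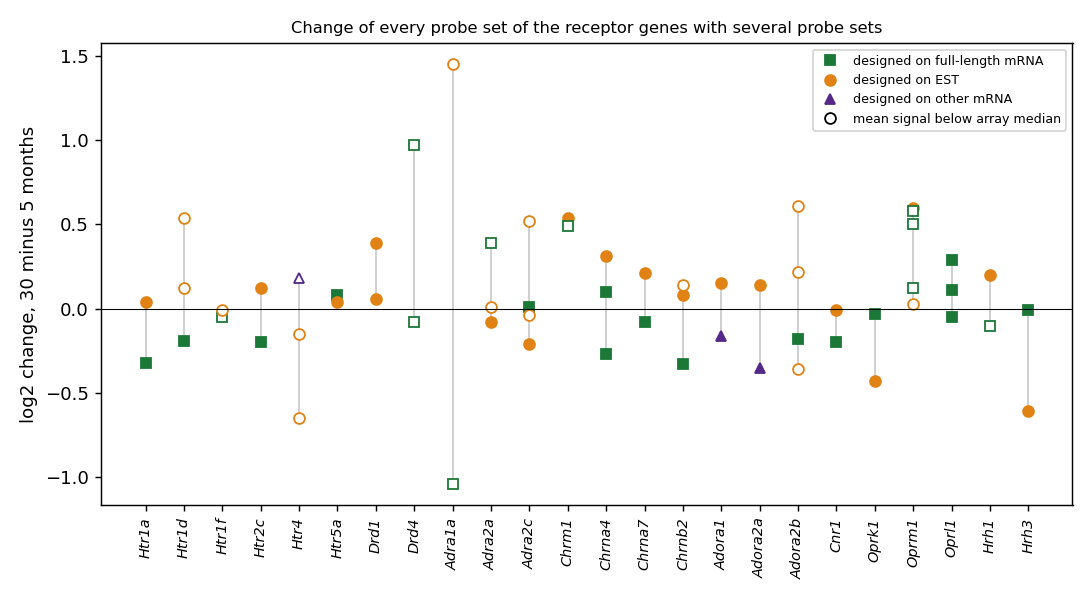
Log2 change (y axis, 30 minus 5 months) of every probe set of the 24 receptor genes with several probe sets, with the shape and colour giving the kind of sequence each was designed on and open symbols a mean below the array median. In 16 genes the points fall on both sides of 0, and the 2 Adra1a probe sets lie at -1.04 and 1.45.

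The authors' deposited table of the same comparison selected 4 of the 71 probe sets (5.63%), where it selected 8.96% of all probe sets. In the authors' deposited table the signed fold was 1.51 for the bright Oprm1 probe set and 1.44 for the bright Chrm1 probe set. The 2 Adra1a probe sets were both selected in the authors' deposited table, with signed folds of -2.03 and 3.02. Oprl1, Chrna7 and Htr1a were not selected there.

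The identity of the tissue and its cell makeup were read from marker genes on the same arrays. All 9 markers of cortical excitatory neurons lay above the array median, with mean log2 levels of 9.38 to 9.50 at 5 months and 9.37 to 9.64 at 30 months. Among these 9, Slc17a7 (0.56) and Cux2 (0.65) were higher, Rorb (-0.52) and Fezf2 (-0.34) were lower, and 5 were not called. Pan-neuronal markers differed by 0.01 between the ages, and by -0.08 with arrays set to the same median over the brighter probe sets. The mean level of astrocyte markers was 9.35 to 9.59 at 5 months and 10.21 to 10.33 at 30 months, and all 6 were higher. Endothelial markers differed by 0.45 (3 of 5 higher), microglial markers by 0.19 (2 of 6 higher and 2 lower), interneuron markers by 0.11 (3 of 10 higher) and thalamic markers by -0.22 (2 of 4 lower). Those 5 differences had exact permutation p-values adjusted over 12 lists of 0.0318 (astrocytes, endothelial cells, microglia) and 0.0382 (interneurons, thalamus), with 0.00794 the smallest unadjusted value that 5 against 5 allows. Under quantile normalization the interneuron difference was 0.04 and the microglial one 0.12, and with arrays set to the same median over the brighter probe sets they were 0.02 and 0.10. Oligodendrocyte markers differed by 0.22 (3 of 6 higher, exact permutation p adjusted over the lists 0.0952). The part of these cell types in the receptor values was not tested.

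Genes that make, move and break down the transmitters were read from fixed lists. Of 13 genes of monoamine synthesis, transport and breakdown, 2 were higher, 1 was lower and 10 were not called. Maob, the monoamine oxidase that is abundant in astrocytes, was higher by 0.35 (SE 0.07, limma adjusted p 0.00423), beside the astrocyte markers above. The noradrenaline transporter gene Slc6a2 was lower by 0.33, with log2 signals of 7.96 ± 0.07 and 7.63 ± 0.16 (SD, n = 5 each), and its probe sets averaged -0.15 without a call.

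Of 9 genes of acetylcholine handling, 2 were higher, 2 were lower and 5 were not called. Lynx1, a membrane-anchored protein that restrains nicotinic receptors, was higher by 0.43 (SE 0.09, limma adjusted p 0.0036), from 10.66 ± 0.20 to 11.09 ± 0.11 (mean log2 signal ± SD, n = 5 each). The choline transporter-like gene Slc44a1 was higher by 0.49 on its brightest probe set and changed by -0.05 without a call when its probe sets were averaged. Slc5a7, the high-affinity choline transporter of cholinergic terminals, fell by 0.74 (SE 0.21, limma adjusted p 0.0192) from signals already below the array median. Chat, the enzyme that makes acetylcholine, was also called lower, at -0.36 (limma adjusted p 0.0428). In the fit on averaged probe sets its change was the same, -0.36, but its adjusted p was 0.0548 and it was not called. Nor was it called with mouse number as a block over 8 mice (-0.37, adjusted p 0.0736). Chat was outside the rule for naming genes and was chosen after its values were seen.

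Of 18 genes for the making and removal of opioid peptides, endocannabinoids, adenosine and histamine, 3 were higher, 3 were lower and 12 were not called. Adk, the kinase that clears adenosine, was higher by 0.30 (SE 0.05, limma adjusted p 0.000649) on its brightest probe set, but it was called lower, at -0.17 (adjusted p 0.00785), without probe sets whose names mark shared sequence, and its probe sets averaged -0.15 without a call. No direction is therefore settled for Adk. Daglb, which makes the endocannabinoid 2-arachidonoylglycerol, was higher by 0.68 (SE 0.11). The adenosine deaminase gene Ada, below the array median, fell by 0.67 (SE 0.16). Pdyn, the precursor of dynorphin, was lower by 0.49 (limma adjusted p 0.00902), from 8.99 ± 0.25 to 8.50 ± 0.18 (mean log2 signal ± SD, n = 5 each). The gene of its receptor, Oprk1, had an uncalled change of -0.03 on its brightest probe set. Pdyn too was chosen after its values were seen. Over the 8 mice numbered 2 to 5 the Pdyn change was -0.43 (adjusted p 0.0516) and was not called.

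Of 23 other receptors of the same families, 19 were measured, 17 of them below the array median. Adra2b was higher at 0.51, and Htr5b and Chrna1 were lower at -0.65 and -0.63, all 3 among the dim genes; Adra2b was at 0.42 (adjusted p 0.0552) with arrays set to the same median over the brighter probe sets. The other 16 were not called. Of 25 G protein subunits, arrestins and receptor kinases, 8 were higher, 2 were lower and 15 were not called. The split was 6 higher and 3 lower under quantile normalization, and 6 and 5 with arrays set to the same median over the brighter probe sets. The receptor kinase Grk6 was higher by 0.57 (SE 0.07, limma adjusted p 0.000163), the arrestin Arrb1, which uncouples and internalizes receptors, by 0.51 (SE 0.07), and the inhibitory subunit Gnai1 by 0.29 (SE 0.04). Without probe sets whose names mark shared sequence, Grk6 and Gnai1 changed by 0.17 and 0.08 and were not called. In each of the 5 lists the share of called genes can be read against the 32.9% called over all genes, but that share depends on signal. Of the genes above the median signal, 42.9% were called. Below the median lay 3 of the 25 G protein, arrestin and kinase genes and 17 of the 19 other receptors.

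**Figure D5:**
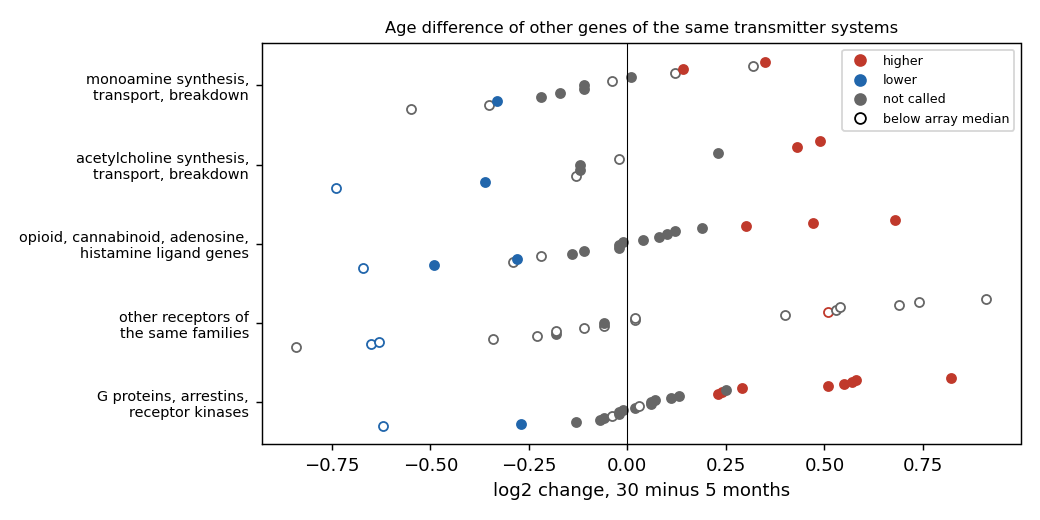
Log2 change (x axis, 30 minus 5 months) of the measured genes of 5 lists that surround the receptors, with called genes coloured and genes below the array median open. Of the 25 G protein, arrestin and kinase genes 8 are higher and 2 lower, and 17 of the 19 other receptors are open points.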

How the data were processed

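Probe set intensities of 10 arrays (5 per age, separate mice per the labels) were used as deposited on a linear scale; the submitters' processing notes name GCOS, without a role or version. The authors' comparison table, with identical intensities, gives per probe set a signed fold score with bounds and a p-value, according to the file headers; 62 p-value cells held no number. Probe sets counted as selected by the authors had a fold bound beyond 1.2 and p-values no greater than 0.1 (per the file headers).

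Of 45037 probe sets, 36239 had 1 gene identifier, 1261 several and 7537 none; identifiers were named with a GRCm38.p6 gene table. The 55 signals under 1 were set to 1 and log2 was taken. The probe set with the highest mean represented each of 17858 genes, with no filter on signal. limma 3.58.1 in R 4.3.3 fitted age with a variance trend, two-sided, with Benjamini-Hochberg adjustment over all genes; other probe sets were adjusted over all probe sets. Array levels of marker lists were compared by an exact permutation test. Named were all members and in each list the 3 called genes of lowest adjusted p, where there were that many, except 1 that is not reported here; other genes are said to be chosen after their values were seen, or are marker genes. Members and lists were chosen with earlier results of these data known.

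On simulated data over 17858 genes, the fit for 30 against 5 months recovered 9 of 67 genes changed by 0.25 (log2), 30 of 67 by 0.5 and 52 of 66 by 1, with 6 false calls. Only these genes were changed there, a far smaller share than the 32.9% called in the real data. The adjustment of p-values depends on that share, so these rates do not carry over to the real comparison. Mouse numbers were checked for pairing over mice 2 to 5. Same-numbered mice of the 2 ages deviated with correlations of -0.07 to 0.02, so no pairing by number was seen in the signals. These correlations cannot tell how the mice were numbered. Array medians lay between 114.5 and 122.6, each array's mean correlation with its own age was 0.9753 to 0.9849, and the number of arrays limits the precision. Alternatives covered scaling, an added constant, a signal filter, the choice of probe set, the variance model, mouse number as a block and leaving out each mouse. Tables were made with pandas 2.3.3 and numpy 2.4.6 in Python 3.11.15, and figures with matplotlib 3.10.9.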

Additional observations from a re-analysis of the deposited data

Results flagged for a closer look

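In 7 of 67 groups of 5 mice examined (a receptor at 1 age), the signal of 1 mouse lay apart from the other 4 by Dixon's ratio of gap to range on the log2 scale, above its 95% critical value; chance flags about 1 group in 20. Signals below are linear. In Adora2a this occurred at both ages: at 5 months mouse 2 was lowest (889 against 1013 to 1048, ratio 0.791), and at 30 months mouse 6 was lowest (932 against 1107 to 1187, ratio 0.71). The same 30-month mouse 6 was highest in Htr5a (250 against 189 to 204, ratio 0.737) and in the dim Adra1a (8.68 against 5.81 to 6.42, ratio 0.751). The 30-month mouse 4 was lowest in Hrh3 (1172 against 1246 to 1277, ratio 0.714) and in the dim Oprd1 (20.7 against 35.3 to 37.1, ratio 0.916). In Adrb1 the 5-month mouse 3 was lowest (849 against 931 to 945, ratio 0.864).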

How the results depend on the processing

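On the deposited scale 4 receptors were higher, 2 were lower and the median log2 change of the members was 0.046. Quantile normalization gave 3 higher, 5 lower and a median of 0.007. Setting arrays to the same median gave a median of 0.066. Setting them to the same median over brighter probe sets, chosen after seeing the data, gave 4 lower and a median of -0.047. Adding 64 to the signal gave a median of 0.018, and testing only brighter genes gave 1 lower and a median of 0.067. Averaging the probe sets of each gene gave 2 higher and 0 lower and reversed Adra1a to 0.20. Leaving out each mouse in turn gave 3 to 5 higher, 2 lower in each case, and medians of 0.013 to 0.079; without 5-month mouse 3 the 2 lower genes were Adra1a and Adra2c in place of Htr1a. Mouse number as a replicate block over 8 mice gave 1 lower and a median of -0.001. The same 8 mice without the block, chosen after seeing the data, also gave 1 lower and -0.001. No pairing by number was seen in the signals. In the block fit Htr1a (-0.33, adjusted p 0.11) and Chrna7 (0.15, adjusted p 0.197) were not called, and Drd2 was (0.29, adjusted p 0.0445). Array weights also called Drd2 (0.28, adjusted p 0.0352) and Adora2a (0.19, adjusted p 0.0486). The cause of these shifts was not tested. For each uncalled receptor with a left-out mouse named above, that mouse had the value that opposed the change. The larger change without it follows from that choice.

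Over all genes 4131 were higher and 1753 lower (70.2% of calls higher), against 2950 and 2582 (53.3%) under quantile normalization and 2666 and 3211 (45.4%) with the brighter probe sets at the same median, which moved the median of all genes from 0.05 to -0.04. Averaging probe sets gave 2500 and 1082 calls, and the block gave 2932 and 740. Chrm1, Oprm1 and Oprl1 were called higher under these 3 scalings. Genes below the array median, where the median SE was 0.20, limit what can be said of 9 receptors.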
